A study of Rattus norvegicus with 6 samples.

Results

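The genes described here handle retinoids, the vitamin A compounds, in the choroid plexus of the lateral ventricles of the Sprague-Dawley rat. Plexuses were collected on embryonic day 19 (E19), on postnatal day 2 (P2) and from adults, and total RNA was hybridized to Affymetrix arrays. Each stage was measured in 2 pools, prepared from separate batches of 6 to 10 plexuses. No animal received an experimental treatment or carried a transgene. Pregnant females were anesthetized with isoflurane before the fetuses were taken, and no anesthesia is named for pups and adults in the sources used here. The adults were males, while the sex of the fetuses and pups is not given in the sources used here, so that sex and stage cannot be told apart. The 9 genes, Abca4, Rdh5, Rdh10, Rbp4, Stra6, Crabp2, Lrat, Aldh1a1 and Aldh1a2, were chosen by name, with earlier results of these data known, out of 14217 genes with at least 1 probe set annotated to them alone. Where several probe sets belonged to a gene, the one with the highest mean over the 6 arrays was chosen to represent it. All 9 genes reached a mean intensity of 100 units, the background level that the study names, in at least 1 stage and entered the test together with 10334 genes in all.

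Retinol travels in plasma bound to retinol binding protein, enters cells through a membrane receptor, and is stored as retinyl esters or oxidized to retinaldehyde and then to retinoic acid. Retinoic acid binds nuclear receptors and regulates genes in development, while retinaldehyde is also the chromophore of the visual pigments, which is regenerated by a cycle of enzymes and carriers in the photoreceptors and the pigment epithelium of the eye. The choroid plexus, which secretes the cerebrospinal fluid, and the adjoining meninges are known as sources of retinoic acid in the developing brain.

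The sequences ahead of the starts of Abca4 and Stra6 are shown, since both genes were far higher in the adult than around birth and the latter window held a receptor motif. They are the 250 bases before the RefSeq gene start of the GRCr8 assembly, on the plus strand, for Abca4 at chr2:212849235-212849484 and for Stra6 at chr8:67444507-67444756. Capitals mark a match to AGGTCA or AGTTCA, the 6-base core motifs to which retinoic acid receptors and related nuclear receptors bind, searched on both strands.
Abca4: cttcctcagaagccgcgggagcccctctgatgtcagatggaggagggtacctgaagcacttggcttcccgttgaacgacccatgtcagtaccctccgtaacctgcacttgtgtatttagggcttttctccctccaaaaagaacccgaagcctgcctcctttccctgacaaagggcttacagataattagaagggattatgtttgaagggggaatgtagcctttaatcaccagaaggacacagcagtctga
Stra6: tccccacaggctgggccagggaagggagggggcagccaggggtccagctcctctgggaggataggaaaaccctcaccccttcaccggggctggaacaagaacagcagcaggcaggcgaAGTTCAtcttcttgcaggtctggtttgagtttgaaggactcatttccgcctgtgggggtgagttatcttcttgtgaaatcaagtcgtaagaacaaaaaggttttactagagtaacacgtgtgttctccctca

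A window from 250 bases before to 50 bases after the start was at hand for 8 of the 9 genes, the exception being Rdh10. Of these 8 windows, 1 held either core motif, namely that of Stra6, 132 to 127 bases before the start. Over all 33469 windows the share with either core motif was 27.85%, so that a single match is a description of the letters and nothing more. Direct repeats of AGGTCA or AGTTCA spaced by 5 bases were found in 10 of all windows, or 0.02988%, by 2 bases in 17 windows (0.05079%) and by 1 base in 32 windows (0.09561%). None of the 8 windows held such a repeat, whereas Cyp26a1, which encodes an enzyme that degrades retinoic acid, held one with a spacing of 5 bases at chr1:244883730-244883746 on the minus strand. The known retinoic acid response element of Rarb, which encodes a retinoic acid receptor, was found at chr15:11336416-11336432 on the plus strand once GGTTCA was allowed as a core motif, a choice made after the letters had been seen. With it, 112 windows, or 0.3346%, held a repeat spaced by 5 bases. Capitals mark the core motifs.
Cyp26a1: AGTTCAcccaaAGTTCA
Rarb: GGTTCAccgaaAGTTCA

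Abca4, which encodes the flippase that clears retinaldehyde conjugates from photoreceptor membranes, was an adult transcript in this tissue. Its intensity was 36.7 and 30.8 units in the E19 pools, 86.5 and 76.0 units in the P2 pools, and 3711 and 3522 units in the adult pools. Both perinatal stages therefore lay under 100 units on every array, and the pools of the 3 stages did not overlap. Set against 100 units, the adult level exceeded that of E19 and that of P2 by at least 36.2-fold. The measured log2 differences from the adult were −6.75 at E19 and −5.48 at P2, both resting on perinatal values under 100 units. Abca4 was chosen for this pattern, so that its values are a description and no test is given. Since both perinatal stages were under 100 units, no difference between them is given. In whole tissue, fewer cells of a type and less RNA per cell cannot be told apart, which applies to every difference given here.

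**Figure D1:**
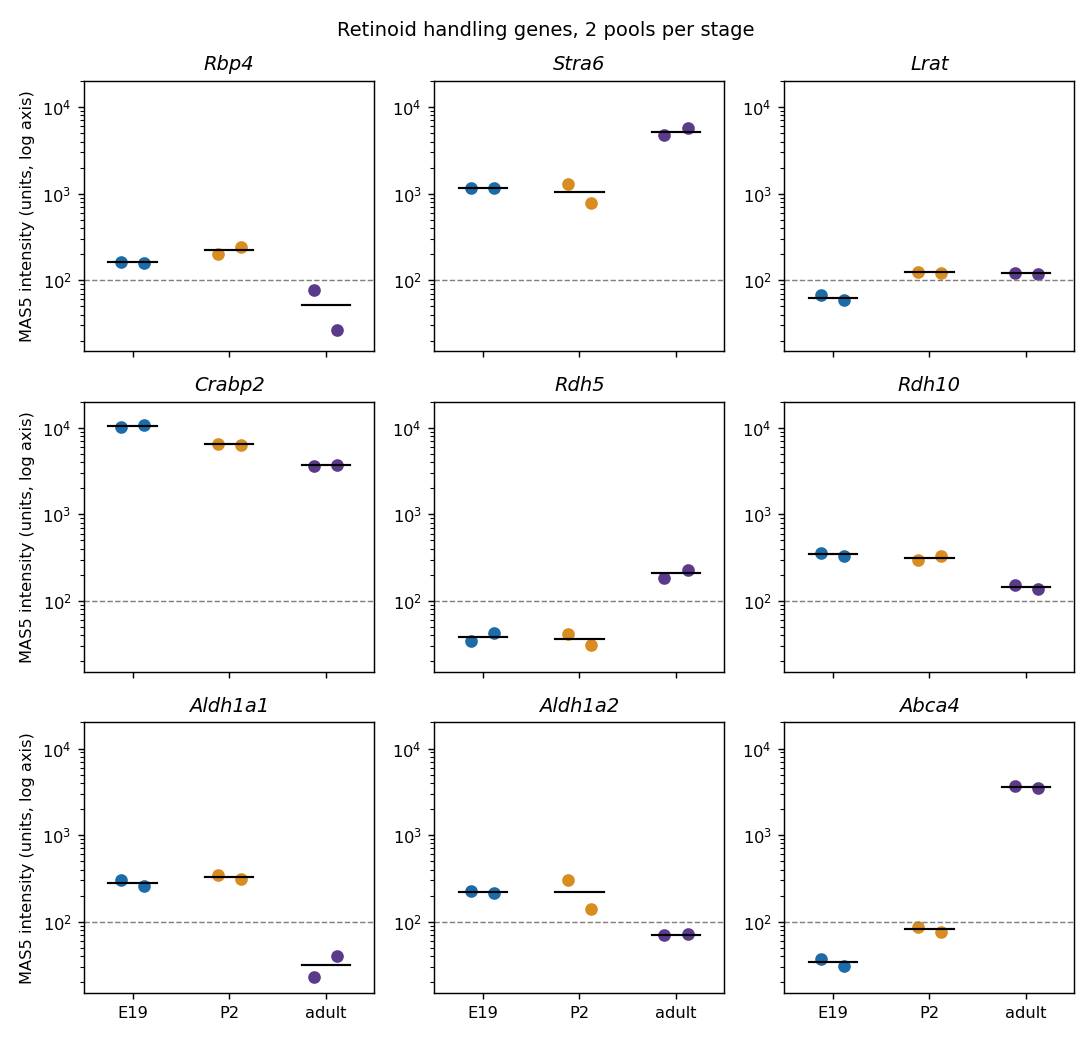
Intensity of the 9 retinoid handling genes (vertical axis, MAS5 units on a log axis) in the E19, P2 and adult choroid plexus; each point is 1 pool, the short line is the stage mean and the dashed line marks 100 units. Abca4, Stra6 and Rdh5 are highest in the adult pools, Crabp2, Rdh10, Rbp4, Aldh1a1 and Aldh1a2 are lowest there, and Lrat is lowest at E19.

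Of the 8 genes besides Abca4, 5 were higher at E19 than in the adult, namely Rbp4, Crabp2, Rdh10, Aldh1a1 and Aldh1a2, and 3 were lower, namely Stra6, Rdh5 and Lrat. Among all genes tested, 31.4% were called higher and 25.2% lower in this comparison. At P2 the same 5 genes were higher than in the adult, Stra6 and Rdh5 were lower, and Lrat was not called. The shares over all genes were 28.8% higher and 21.8% lower. Both comparisons use the same 2 adult pools. The median log2 difference of the 8 genes was 1.39 at E19 and 0.96 at P2, against 0.041 and 0.052 over all genes. The 8 genes were chosen with earlier results of these data known, so that this contrast is a description. For the 24 pathway genes tested besides the members, the medians were −0.032 and −0.075. Between E19 and P2, Crabp2 was higher at E19, Lrat was lower and 6 genes were not called, where 2.56% of all genes were called higher and 3.61% lower. Leaving out an E19 or P2 pool leaves that stage with 1 pool, and calls between these stages then fell away over the whole array. Member calls lost in this way are therefore not particular to these genes. Genes were called at an adjusted p under 0.05 in limma throughout, and with 2 pools per stage a p measures only the spread between pools. A gene under 100 units in some stages passed the filter through the stages where it was higher, which limits what its p can show.

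Retinol carriage and uptake were represented by Rbp4 and Stra6. Rbp4, the plasma carrier of retinol, gave 162 and 158 units at E19, 201 and 239 units at P2, and 76.0 and 26.8 units in the adult. The perinatal pools all lay above 100 units and the adult pools below, although the adult pools differed from each other 2.83-fold. Rbp4 passed the filter through the perinatal stages alone, where it was high, so that its p-values against the adult are a description. Relative to the adult, E19 was at least 1.60-fold higher (log2 difference 1.82 ± 0.48 SE, adjusted p = 0.0260) and P2 at least 2.20-fold higher (2.28 ± 0.48, adjusted p = 0.0147). With adult pool 1 left out, the log2 difference was 2.58 at E19 and 3.03 at P2. With adult pool 2 left out, the values were 1.07 and 1.53. The call at E19 was lost when an E19 pool or a P2 pool was left out (adjusted p 0.0520 to 0.0963), as was the call at P2 without a P2 pool (0.0561 and 0.0721). It was lost as well when no filter was set on low values, with adjusted p of 0.0857 and 0.0600.

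Stra6, the membrane receptor through which retinol is taken up from its carrier, ran the other way. Its leading probe set gave 1170 and 1148 units at E19, 1297 and 772 units at P2, and 4700 and 5697 units in the adult. Every adult pool exceeded every perinatal pool. Against the adult, E19 was 4.47-fold lower (log2 difference −2.16 ± 0.26 SE, adjusted p = 0.00210) and P2 was 5.17-fold lower (−2.37 ± 0.26, adjusted p = 0.00197). The difference between E19 and P2 was 0.21, with a 95% interval from −0.45 to 0.88, and the P2 pools lay on both sides of the E19 pools.

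Stra6 was measured by 5 probe sets, of which 4 passed the filter. All 4 were lower at both perinatal stages, with log2 differences from −1.76 to −2.64 at E19 and from −1.83 to −2.86 at P2. The remaining probe set stayed between 45.7 and 98.6 units on all arrays. P2 pool 1 was above P2 pool 2 on each of the 5 probe sets, and on the leading one the pools differed by 0.75 on the log2 scale, while the central 90% of probe sets differed by −0.39 to 0.48 between these pools.

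**Figure D2:**
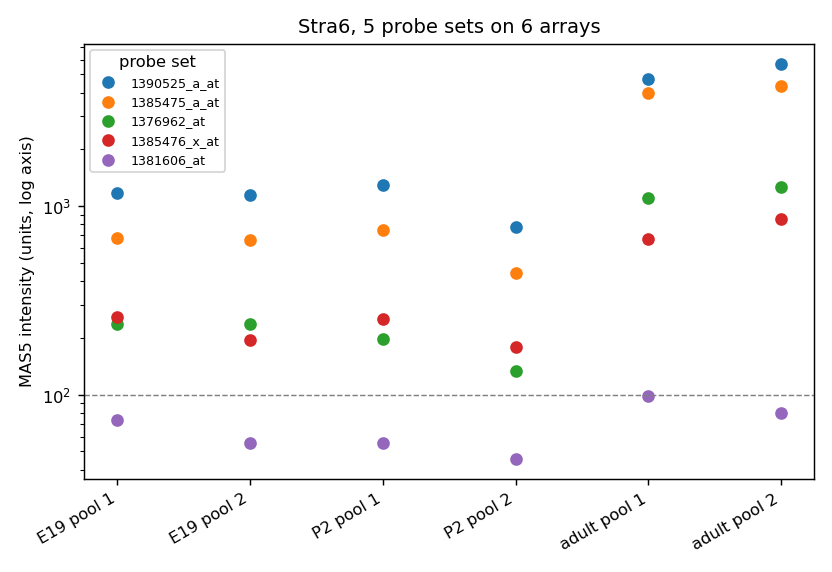
Intensity of the 5 Stra6 probe sets (vertical axis, MAS5 units on a log axis) on each of the 6 arrays; the dashed line marks 100 units. On 4 probe sets the adult pools lie above all E19 and P2 pools, and the remaining one stays under 100 units on every array.

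Among the other uptake genes, Ttr, which encodes transthyretin, the plasma partner of the retinol carrier and a major product of the plexus epithelium, was not called at either stage (log2 difference −0.01, adjusted p = 0.955 at E19; −0.16, adjusted p = 0.408 at P2). Lrp2, the endocytic receptor megalin, gave 1067 and 1001 units at E19, 520 and 342 units at P2, and 138 and 145 units in the adult. The E19 level exceeded that of the adult 7.31-fold (adjusted p = 0.000457) and the P2 level did so 2.98-fold (adjusted p = 0.00342). Stra6 and Lrp2, both receptors able to take up carrier-bound retinol, thus differed from the adult in opposite directions.

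Retinol is stored as its ester by lecithin retinol acyltransferase, the product of Lrat. This gene gave 67.5 and 58.4 units at E19, 125 and 122 units at P2, and 120 and 118 units in the adult. The values sat close to the background level throughout, with the E19 pools below it and the others just above. Lrat passed the filter through P2 and the adult, where it was higher, so that the p-values for E19 are a description. Expression at E19 was at least 1.19-fold lower than in the adult (log2 difference −0.93 ± 0.10 SE, adjusted p = 0.00156) and at least 1.24-fold lower than at P2 (−0.98 ± 0.10, adjusted p = 0.0220). P2 and the adult differed by 0.05 (95% interval −0.21 to 0.31), and the sign turned to −0.067 with the arrays centred on their medians and −0.20 after quantile normalization. Rpe65, the isomerohydrolase that acts on retinyl esters in the eye, was below 100 units in all 4 perinatal pools (20.5 to 56.3 units) and gave 195 and 200 units in the adult. It was at least 1.97-fold lower at both stages, with adjusted p = 0.00160 at E19 and 0.00482 at P2. Rpe65 passed the filter through the adult alone, the stage where it was high, so that these p-values are a description.

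Crabp2, which carries retinoic acid to its nuclear receptors, fell from stage to stage. It gave 10354 and 10654 units at E19, 6561 and 6339 units at P2, and 3648 and 3716 units in the adult. The pools of a stage lay within 1.04-fold of each other and the stages did not overlap. Against the adult, E19 was 2.85-fold higher (log2 difference 1.51 ± 0.08 SE, adjusted p = 0.000217) and P2 was 1.75-fold higher (0.81 ± 0.08, adjusted p = 0.00147). It was 1.63-fold higher at E19 than at P2 (0.70 ± 0.08, adjusted p = 0.0224). With a single E19 or P2 pool left out, this last log2 difference ran from 0.68 to 0.73. The call was then lost, as calls between these stages were over the whole array.

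Of the other carriers of retinoids inside the cell, 4 were tested. Crabp1, a further retinoic acid binding protein, gave 1123 and 1219 units at E19, 317 and 602 units at P2, and 74.4 and 81.2 units in the adult, with an excess over the adult of at least 11.7-fold and 4.6-fold. Fabp5, a fatty acid binding protein that also binds retinoic acid, exceeded its adult level 6.58-fold and 5.75-fold. Rlbp1, the retinaldehyde binding protein of the pigment epithelium and Müller glia, exceeded its adult level 1.78-fold at E19 (adjusted p = 0.00215) and was not called at P2 (log2 difference 0.02, adjusted p = 0.906). Rbp2, a cellular retinol binding protein best known from the intestine, gave 76.9 and 77.3 units at E19, 129 and 153 units at P2, and 297 and 304 units in the adult, and was called lower at both stages. Of the 5 carriers tested, Crabp2 included, 4 were higher and 1 lower at E19, where 31.4% and 25.2% of all genes were, and 3 were higher and 1 lower at P2, where 28.8% and 21.8% of all genes were.

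**Figure D3:**
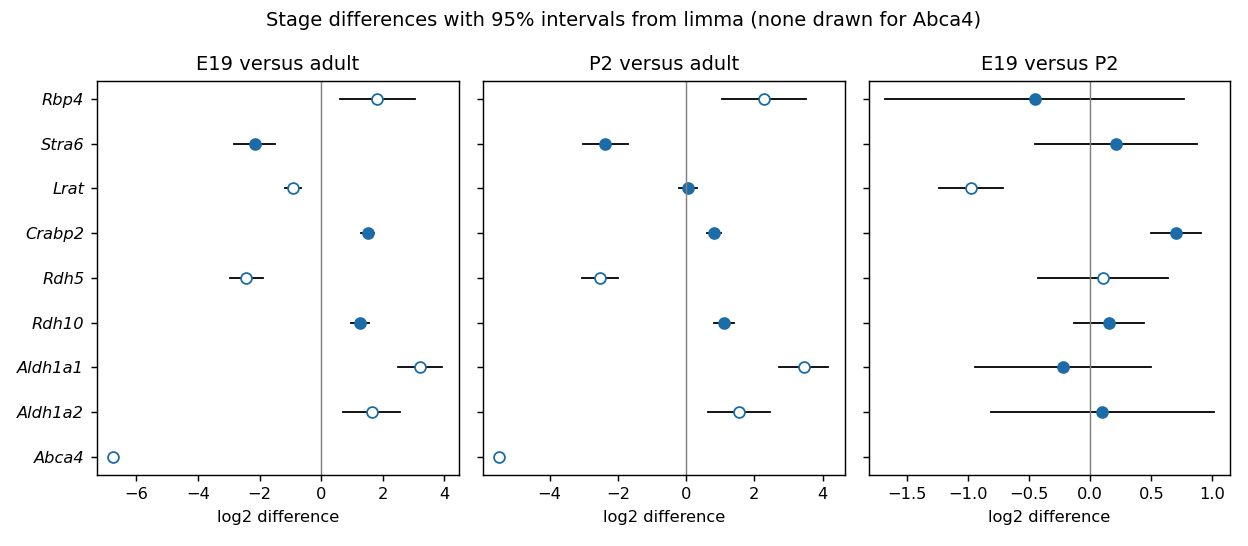
Log2 difference in intensity (horizontal axis) of the 9 retinoid handling genes between E19 and adult, P2 and adult, and E19 and P2, with 95% intervals from limma; open circles mark a difference in which both pools of at least 1 stage lay under 100 units, and no interval is drawn for Abca4. The differences from the adult run from −6.75 for Abca4 to 3.44 for Aldh1a1, and those between E19 and P2, where Abca4 is not drawn, from −0.98 for Lrat to 0.70 for Crabp2.

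The enzymes that interconvert retinol and retinaldehyde were divided. Rdh10, the main retinol dehydrogenase of retinoic acid synthesis in the embryo, gave 361 and 333 units at E19, 294 and 330 units at P2, and 153 and 136 units in the adult. All perinatal pools lay above the adult pools. Their excess was 2.40-fold for E19 (log2 difference 1.26 ± 0.11 SE, adjusted p = 0.000825) and 2.15-fold for P2 (1.11 ± 0.11, adjusted p = 0.00156). E19 and P2 differed by 0.15, with a 95% interval from −0.13 to 0.44. A further Rdh10 probe set stayed between 2.36 and 15.7 units and was not tested.

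Rdh5, the cis-retinol dehydrogenase of the pigment epithelium of the eye, was an adult transcript. It gave 34.7 and 42.7 units at E19, 41.9 and 30.6 units at P2, and 186 and 230 units in the adult. The perinatal pools were all under 100 units and overlapped with each other. Expression was at least 2.08-fold lower at both stages, with measured log2 differences of −2.43 ± 0.21 (SE, adjusted p = 0.000742) at E19 and −2.53 ± 0.21 (adjusted p = 0.000865) at P2. Rdh5 passed the filter through the adult alone, the stage where it was high, so that these p-values are a description. A further Rdh5 probe set, not tested, gave 9.29 to 32.4 units in the perinatal pools and 81.7 and 70.9 units in the adult.

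Among the other dehydrogenases and reductases, Rdh11, a microsomal enzyme that reduces retinaldehyde, gave 419 and 436 units at E19, 552 and 466 units at P2, and 2396 and 2215 units in the adult. The adult exceeded E19 5.40-fold (adjusted p = 0.000164) and P2 4.54-fold (adjusted p = 0.000270). Dhrs3, a retinaldehyde reductase, was 1.27-fold and 1.48-fold lower. Dhrs4 and Dhrs7, short-chain dehydrogenases of the same superfamily, were lower at both stages as well, by 1.58-fold to 2.20-fold. In all, 9 genes of this role were tested, Rdh5 and Rdh10 included. At E19 1 of them was higher and 6 were lower than in the adult, and at P2 1 was higher and 5 were lower. Over all genes, 31.4% were higher and 25.2% lower at E19, and 28.8% and 21.8% at P2. Of the lower genes, Rdh5 and Dhrs9 passed the filter through the adult alone, so that their calls are a description. Dhrs9, called at E19 only, gave 40.9 and 61.8 units at E19, 53.8 and 73.9 units at P2, and 115 and 91.9 units in the adult. Rdh10 was the one that was higher at each stage.

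Retinoic acid is made from retinaldehyde by the aldehyde dehydrogenases. Aldh1a1 gave 304 and 259 units at E19, 346 and 309 units at P2, and 22.6 and 40.1 units in the adult. All adult values were under 100 units and all perinatal values were well above it. Aldh1a1 passed the filter through the perinatal stages alone, where it was high, so that its p-values against the adult are a description. The excess over the adult was at least 2.81-fold for E19 and 3.28-fold for P2, with measured log2 differences of 3.22 ± 0.28 (SE, adjusted p = 0.000787) and 3.44 ± 0.28 (adjusted p = 0.000856). The difference between E19 and P2 was −0.22, with a 95% interval from −0.94 to 0.50.

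Aldh1a2, the principal enzyme of retinoic acid synthesis in the embryo and in the meninges, gave 224 and 215 units at E19, 302 and 139 units at P2, and 70.0 and 71.1 units in the adult. The adult pools lay below every perinatal pool, while the P2 pools differed from each other 2.17-fold and enclosed the E19 pools. Aldh1a2 passed the filter through the perinatal stages alone, where it was high, so that its p-values against the adult are a description. The excess over the adult was at least 2.20-fold for E19 (log2 difference 1.64 ± 0.36 SE, adjusted p = 0.0143) and 2.21-fold for P2 (1.54 ± 0.36, adjusted p = 0.0198). At P2 the difference was 0.98 without P2 pool 1 and 2.10 without P2 pool 2. The call at E19 was lost when any E19 or adult pool was left out (adjusted p 0.0510 to 0.0657) and that at P2 when either adult pool was (0.0653 and 0.0662). With no filter on low values the adjusted p were 0.0575 and 0.0738.

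Aldh1a3, the remaining retinaldehyde dehydrogenase on the array, was above 100 units at P2 alone. It gave 49.8 and 28.2 units at E19, 206 and 131 units at P2, and 5.70 and 31.6 units in the adult. P2 exceeded the adult at least 1.69-fold (adjusted p = 0.0198), a p that is a description, since the gene passed the filter through P2 alone. E19 against the adult was not called (adjusted p = 0.190), with both stages under 100 units, and the difference between E19 and P2 was not called (log2 difference −2.13, adjusted p = 0.181). Cyp26b1, whose product degrades retinoic acid, gave 427 and 421 units at E19, 474 and 325 units at P2, and 76.6 and 109 units in the adult. It was called higher at E19 (log2 difference 2.21, adjusted p = 0.00162) and at P2 (2.10, adjusted p = 0.00239), against an adult mean of 92.9 units that lay under the background level. Cyp26b1 passed the filter through the perinatal stages alone, where it was high, so that its p-values are a description. Of the 3 synthesis genes tested, 2 were called higher at E19 and 3 at P2, where 31.4% and 28.8% of all genes were. Cyp26b1 was the single degradation gene tested. Cyp26a1 was below 100 units on all arrays, at most 76.9 units.

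Of the nuclear receptors, Rarb, itself a gene that retinoic acid induces through the element shown above, gave 1178 and 1106 units at E19, 990 and 940 units at P2, and 167 and 195 units in the adult. The E19 level was 6.32 times (adjusted p = 0.000121) and the P2 level 5.34 times (adjusted p = 0.000192) that of the adult. Rara was not called at either stage (log2 difference 0.36 and 0.52), and Rxrb was 1.44-fold lower at E19. The probe set chosen to represent each of Rarg, Rxra and Rxrg stayed under 100 units on all arrays. These readings describe the probe sets and leave the level of the genes unmeasured here. The study, by contrast, names Rxra among the transcription factor genes with high expression in the choroid plexus. The low values of the Rxra probe set are therefore not read as a low level of the gene.

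Over the whole pathway, 59 genes were listed, 50 of them were represented on the array and 33 were tested. Without the 9 chosen genes, 24 were tested, of which 6 were higher, 9 lower and 9 not called at E19 against the adult, and 7 were higher, 7 lower and 10 not called at P2. Between E19 and P2, 2 were higher, 2 lower and 20 not called. The median log2 difference of the 24 genes was −0.032 at E19 and −0.075 at P2, close to those over all genes given above. Over all genes, 31.4% were called higher and 25.2% lower at E19, and 28.8% and 21.8% at P2, and nothing particular to the pathway is read from its counts. The lists were drawn up with earlier results known, and these counts are descriptions.

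**Figure D4:**
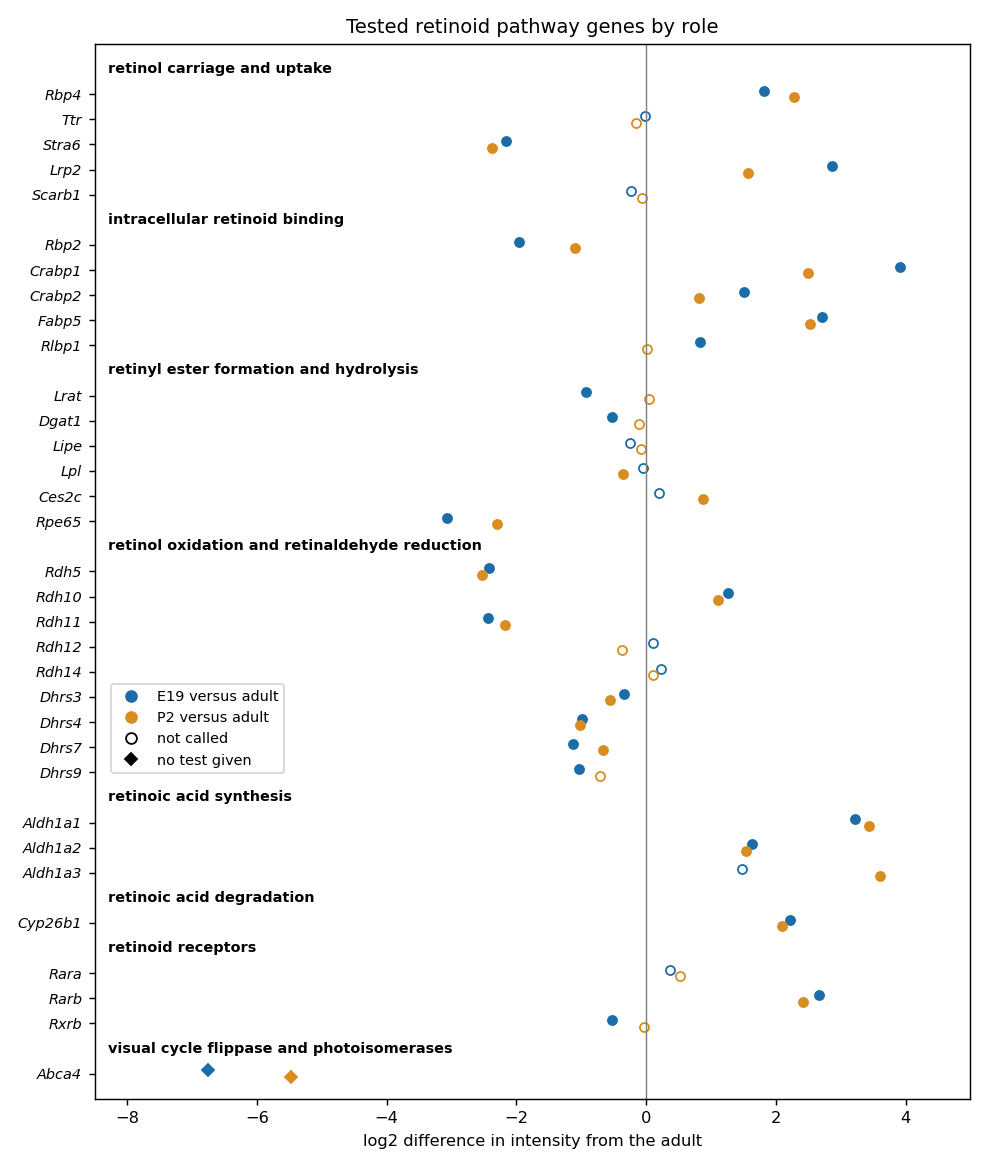
Log2 difference in intensity from the adult (horizontal axis) of the 33 tested retinoid pathway genes, grouped by role, at E19 and P2; filled circles were called at an adjusted p under 0.05, open circles were not, and diamonds mark Abca4, for which no test is given. The 3 genes of retinoic acid synthesis and Cyp26b1 lie on the right, with Aldh1a3 not called at E19, and 6 of the 9 dehydrogenases and reductases are called on the left at E19.

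Marker transcripts of several other cell types of the tissue differed between the stages too. Those of 11 endothelial marker genes summed to 10726 to 11684 units in the perinatal pools and 2179 to 2221 units in the adult, and 10 of the 11 were higher at both stages, where 31.4% of all genes were at E19 and 28.8% at P2. Mural cell markers summed to 4074 to 4439 and 1028 to 1054 units, although Myh11 of this list went the other way (180 to 302 units, then 351 and 317). Macrophage and myeloid markers summed to 2796 to 3855 and 1588 to 1631 units. Of 9 tested macrophage and myeloid markers, 3 were higher at E19, near the share over all genes, and 7 at P2. Their median log2 difference at E19 was 0.044, against 0.041 over all genes. Mrc1, a macrophage gene, made up a large part of the difference in their sum, with 614 to 964 units in the perinatal pools and 39.7 and 25.7 units in the adult. Of 3 erythroid markers, 3 were higher at E19 and 2 at P2. Among 13 tested markers of fibroblasts and meninges, 7 were higher and 4 lower at both perinatal stages, where 25.2% of all genes were lower at E19 and 21.8% at P2. Col3a1, a fibrillar collagen gene, gave 4697 to 5541 units in the perinatal pools and 338 and 401 units in the adult, the direction of Aldh1a1 and Aldh1a2. Slc13a4, a sulfate transporter gene, gave 2262 to 3782 and then 12653 and 12240 units, the direction of Stra6. Epithelial markers summed to 118972 to 123352 units in the perinatal pools and 144678 to 148455 units in the adult, with Kcnj13, which marks this epithelium, under 100 units on all arrays. Of 12 tested epithelial markers, 2 were higher and 4 lower at E19, and 1 was higher and 4 lower at P2. Prlr, the prolactin receptor gene, gave 635 to 1091 units in the perinatal pools and 15269 and 16148 units in the adult, and Kl, the klotho gene, gave 803 to 918 and then 2971 and 2574 units. Prlr alone made up a large part of the difference in the epithelial sum. Krt18, a keratin gene of the same list, went the other way, with 7578 to 8931 and then 5578 and 5772 units. Folr1, a folate receptor gene (11735 to 14836 units), and Otx2, a transcription factor of the plexus (10059 to 12608 units), were well above background in every pool.

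Abca4, Rpe65, Rdh5 and Rlbp1 are known from the eye, so the markers of pigment epithelium and melanocytes were read beside them. Their sum was 12767 to 13219 units at E19, 8325 to 8839 units at P2 and 9371 to 9510 units in the adult, and Rgr, Tyr, Pmel and Mlana were under 100 units on all arrays. Rpe65 and Rlbp1 are themselves on this list. Rlbp1 and Mitf, a transcription factor gene also expressed in other cells, made up most of the sum, which was highest at E19. Rpe65 went the other way, with 20.5 and 26.6 units at E19 and 195 and 200 units in the adult. Markers of astrocytes and oligodendrocytes rose toward the adult, from 420 and 484 units at E19 and 1053 and 640 units at P2 to 3900 and 2301 units in the adult. Mbp, a myelin gene, differed between the adult pools (1989 and 656 units). The part of these shifts in the retinoid values was not tested.

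**Figure D5:**
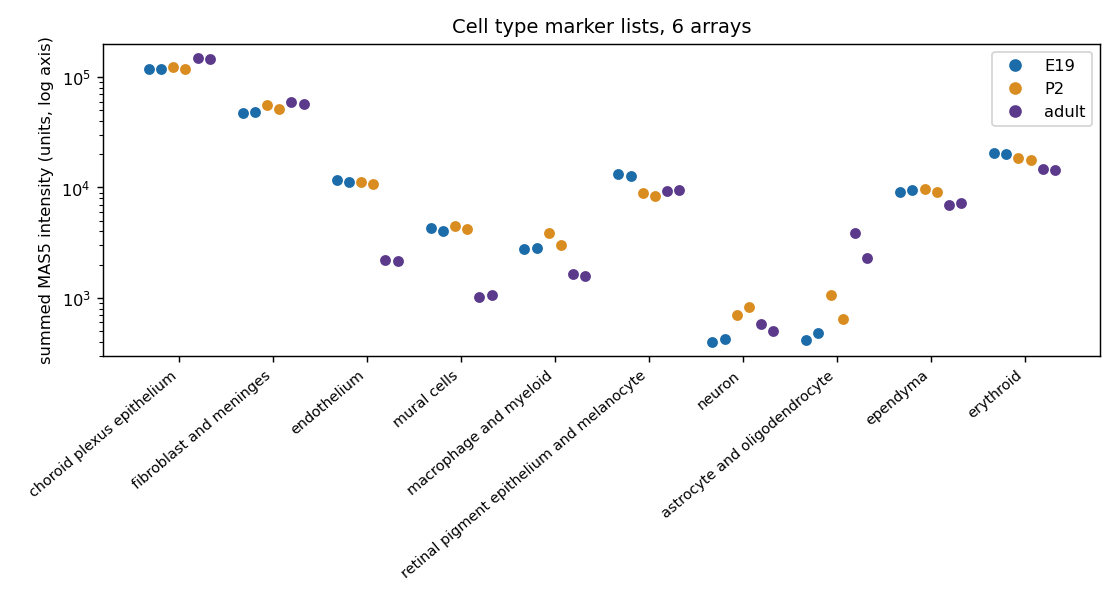
Summed intensity of the probe sets of each cell type marker list (vertical axis, MAS5 units on a log axis) on the 6 arrays; each point is 1 pool. Endothelial and mural lists are lowest in the adult, the epithelial list is highest there, in large part through Prlr, and the list of pigment epithelium and melanocytes is highest at E19.

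Genes with the most similar profile were sought for each of the 9 genes as those with the smallest root mean square distance of centred log2 intensities over the 6 arrays. The nearest to Abca4 was Adipoq, the adiponectin gene, at a distance of 0.46. It gave 63.5 and 45.3 units at E19, 67.7 and 54.3 units at P2, and 3501 and 3616 units in the adult. Ptgis, the prostacyclin synthase gene (0.53), and Grp, which encodes gastrin-releasing peptide (0.65), followed, then Mefv (0.69) and Nefh (0.70). All 5 were under 100 units in every perinatal pool. Stra6 and Rdh5 were near each other, at a distance of 0.17, and the gene nearest to either was Zbtb20, a zinc finger repressor gene, at 0.14. Sorl1 was among the 5 nearest to both, and Rdh11 among those of Rdh5, at 0.22. The nearest genes were Osbpl6 for Crabp2 (0.06), Plppr5 for Rdh10 (0.03), Clec10a for Rbp4 (0.09), Wdr5b for Lrat (0.06), Bub1 for Aldh1a1 (0.11) and Sparcl1 for Aldh1a2 (0.16). Sparcl1 shared with Aldh1a2 the gap between the P2 pools, with 2099 and 737 units. The distances rest on 6 arrays of 3 stages and describe the profile only.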

How the data were processed

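Gene expression was measured in 6 RNA pools, 2 per stage, on Affymetrix Rat 230 2.0 arrays. The deposited values are signal intensity, computed by the authors with Affymetrix Expression Console and MAS5, versions not given in the sources used here, linear and scaled on each array to a trimmed mean near 500 units. No column of values was left out. The table held 31099 probe sets, 57 of them controls that were dropped, and a probe set was tested if its mean reached 100 units in any stage, which left 17808. The linear model of limma 3.58.1 (R 4.3.3) was fitted to log2 intensities of all 6 arrays with a mean for each stage, leaving 3 residual and adding 2.15 prior degrees of freedom. Benjamini-Hochberg adjustment ran over every tested probe set of a comparison, and all p-values in the text are limma's. Errors of log2 differences are standard errors. A fold against a stage with both pools under 100 units is a bound computed with 100 units in its place, and no fold is given between stages that were both that low.

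Gene names came from the platform's annotation and the RefSeq gene table, which tied 20826 probe sets to a single gene, 436 to several and 9780 to none. Genes could be named if they are among the 9 members, on the pathway, retinoic acid target or cell type marker lists, or among the 5 nearest profiles of a member. The members and all lists were chosen with earlier results of these data known. Medians of intensity were 100.4 to 125.9 units per array, and for arrays the number of pools limits the precision. Alternatives changed the filter, the scaling, the treatment of low values, the choice of arrays, the estimate of the spread, the block, the threshold and the probe sets of a gene, or left out 1 pool. The same pool number did not pair samples across stages. The procedure was tested on simulated data. Sequences are from RefSeq, GRCr8.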

Additional observations from a re-analysis of the deposited data

How the results depend on the processing

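The counts of member genes besides Abca4 called against the adult, 8 at E19 and 7 at P2, were 6 to 8 and 5 to 7 under the alternatives run. The comparison between E19 and P2 was less stable. Its member count of 2 became 1 when a mean of 200 units was required, and 0 with no filter on low values, at an adjusted p under 0.01 and with the pool number as a replicate block. Over the whole array, no probe set was called with no filter or at an adjusted p under 0.01. The block fit called 49 probe sets higher and 72 lower, against 624 and 645 in the main fit. The loss of member calls with no filter, at an adjusted p under 0.01 and in the block fit was thus shared by the array. With a mean of 200 units required, Lrat was no longer tested, while 840 probe sets were called higher and 921 lower. With no filter, at an adjusted p under 0.01 and in the block fit, 2 members had an unadjusted p under 0.05 in limma. The fits without an E19 or P2 pool, described above, are not counted here. In the block fit the adjusted p were 0.0587 for Crabp2 and 0.0544 for Lrat, and no other member's call changed; the numbers do not pair the samples (correlations of deviations −0.057 to 0.0069). Between E19 and P2, leaving out 1 pool gave log2 differences from −0.12 to 0.33 for Rdh5, −0.16 to 0.59 for Stra6 and −0.46 to 0.66 for Aldh1a2, none of which was called. Lrat between P2 and adult turned to −0.067 with centred arrays and −0.20 after quantile normalization.

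With values under 100 units set to 100, the difference of Abca4 from the adult was −5.18 at both stages; with 50 units added it was −5.45 at E19 and −4.81 at P2. With values under 100 set to 100, Rbp4 was called between E19 and P2 (−0.46, adjusted p = 0.0448) and Lrat was not (−0.31, adjusted p = 0.0512). Centring the arrays on their medians shifted the median of all probe sets by −0.11 at E19 and −0.12 at P2 and lowered the share of calls that were higher from 55.7 to 46.7% and from 55.6 to 44.6%, while the splits of the member genes and of the pathway genes stayed as given. The causes were not tested. Where a stage lies near 100 units, background fluorescence limits what a fold can show.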

Other observations

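Genes often named as raised by retinoic acid were called in both directions. Of 20 listed, 14 were tested, and 5 were higher, 5 lower and 4 not called at E19 against the adult, where 31.4% of all genes were higher and 25.2% lower. At P2, 5 were higher, 6 lower and 3 not called, where the shares were 28.8% and 21.8%, with median log2 differences of −0.14 and 0.19 at the 2 stages against 0.041 and 0.052 over all genes. Rarb, Cyp26b1 and Crabp2 were among the higher genes, as was Meis2, a homeobox gene, at 150 and 205 units at E19, 161 and 185 units at P2, and 44.7 and 14.8 units in the adult. Tshz1, a zinc finger gene, was 1.54-fold and 1.71-fold higher. Among the lower genes beside Stra6 and Dhrs3 were Rarres2, which encodes the adipokine chemerin, and Ptgds, a prostaglandin D synthase whose product also binds retinoids. Rarres2 gave 376 and 294 units at E19, 942 and 648 units at P2, and 1339 and 1617 units in the adult, so that the adult exceeded E19 4.42-fold (adjusted p = 0.00148) and P2 1.88-fold (adjusted p = 0.0258). Ptgds gave 8736 and 8907 units at E19, 14549 and 13126 units at P2, and 20262 and 19292 units in the adult, so that the adult exceeded E19 2.24-fold and P2 1.43-fold. The list shares Rarb, Cyp26b1, Dhrs3, Stra6 and Crabp2 with the pathway, and these counts are descriptions.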
